A study of Saccharomyces cerevisiae with 15 samples.

Results

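The mitochondrial ribosome of Saccharomyces cerevisiae translates the few messages of the mitochondrial genome, and nearly all of its proteins are encoded in the nucleus, made in the cytosol and imported. The genes described here are the 43 rows of the deposited expression table whose gene name is MRPL or MRPS followed by a number, out of 5980 genes in the table. Of these, 34 encode proteins of the large subunit (MRPL) and 9 encode proteins of the small subunit (MRPS). The names cover part of the particle, and 36 further mitoribosomal genes with other names (RSM, MRP, IMG and the like) are used beside them for comparison. The table's own descriptions call 42 of the 43 a mitochondrial ribosomal protein; the exception is MRPS12, which the table describes only by its likeness to the bacterial protein S12.

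The study measured gene expression by sequencing of total RNA from 5 yeast strains, with 3 libraries per strain and 15 libraries in all. BY47419 is the starting strain. C0 was built for β-carotene production, C3-06 and C5-63 are intermediate strains of an evolution for that product, and C7-143 is its final strain. All 5 strains carry his3Δ1, leu2Δ0, met15Δ0 and ura3Δ0 and express the nuclease spCas9-NG. C0, C3-06, C5-63 and C7-143 also overexpress HMG1, CrtE, CrtYB and Crt I, and BY47419 does not. All were grown in YPD with 20 g/L glucose at 30 °C and taken at an OD600 of about 3, which the labels call exponential phase. Whether a strain's 3 libraries are separate cultures is not stated in the labels; the p-values therefore rest on differences among libraries that may be technical. Each evolved strain is a single strain, so a difference from C0 belongs to that strain.

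Budding yeast ferments glucose and represses respiration while glucose is plentiful, and its need for mitochondrial translation rises when respiration is used. Messages for mitochondrial ribosomal proteins are known targets of Puf3, a Pumilio-family protein that binds an 8-base element after the stop codon and, in glucose, promotes decay of the bound message. Cytosolic ribosomal protein genes, by contrast, are driven by Rap1, Ifh1, Fhl1 and Sfp1 and follow growth.

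All 43 genes had an element of the Puf3 type, TGTANATA, on the sense strand within 250 bases after the stop codon in the RefSeq R64 genome. The element was present in 910 of 5977 genes (15.23%) in the same window, in 35 of the 36 other mitoribosomal genes (97.22%) and in 8 of 137 cytosolic ribosomal protein genes (5.839%). Among mitochondrial neighbours in function it was found in 13 of 13 mitochondrial tRNA synthetase genes, in 31 of 41 mitochondrial translation factor genes (75.61%), in 25 of 33 import genes (75.76%) and in 8 of 40 respiratory chain genes (20%). A match describes these letters and does not show binding. The 43 genes held 55 elements: 32 genes had 1, 10 genes had 2, and MRPL19 had 3. The fifth base of the element was A in 24, T in 17, C in 13 and G in 1 (in MRPL3). The first element began a median of 55 bases after the stop codon, with a range of 8 to 139, and within 100 bases in 39 of the 43 genes.

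The sequences that follow are the first elements of 8 genes from both ends of the range of expression changes in C7-143 against C0, with none from its middle. They run 5′ to 3′ on the coding strand, with the element in capitals. The first 4 belong to the genes with the largest falls in C7-143 against C0, the next 2 to those with the only rises, and the last 2 to genes of the upper part of the range that were not called in any of the 3 evolved strains against C0.
MRPS12 (chrXIV:694269-694298, minus strand): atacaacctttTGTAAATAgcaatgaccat
MRPL28 (chrIV:1386537-1386566, plus strand): ctgtctcctgcTGTAAATAactgatgatca
MRPL33 (chrXIII:842249-842278, plus strand): tgacttatataTGTATATAgtattattttt
MRPS17 (chrXIII:636217-636246, minus strand): gcactacactcTGTAAATAtatacaactac
MRPL32 (chrIII:119206-119235, plus strand): aaacttaagccTGTATATAgaaacttaatt
MRPL27 (chrII:768698-768727, plus strand): ttcaatatgcgTGTAAATActagttttcga
MRPL11 (chrIV:99267-99296, plus strand): ctattcaatcaTGTACATAcatcatcaaaa
MRPL23 (chrXV:612535-612564, plus strand): tcttcaatccaTGTATATAtttatctgtta

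The last 4 sequences have a C 2 bases before the element and the first 4 do not; Puf3 is known to bind more tightly where that C is present. Counting every element of a gene, 35 of the 43 genes (81.4%) had at least 1 with the C, against 267 of the 910 genes with an element. Those 267 were 4.467% of all 5977 genes searched, most of which have no element. The 8 without it were MRPL15, MRPL19, MRPL22, MRPL28, MRPL31, MRPL33, MRPS12 and MRPS17. This split was made after expression values were known, so it is given as a description. In C7-143 against C0 the median log2 fold change was -0.83 over the 8 genes without the C (range -1.88 to -0.26) and -0.51 over the 35 with it (range -1.15 to 0.90). The 8 thus include the 4 largest falls, MRPS12, MRPL28, MRPL33 and MRPS17, as well as MRPL19 and MRPL15, which were not called.

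**Figure D1:**
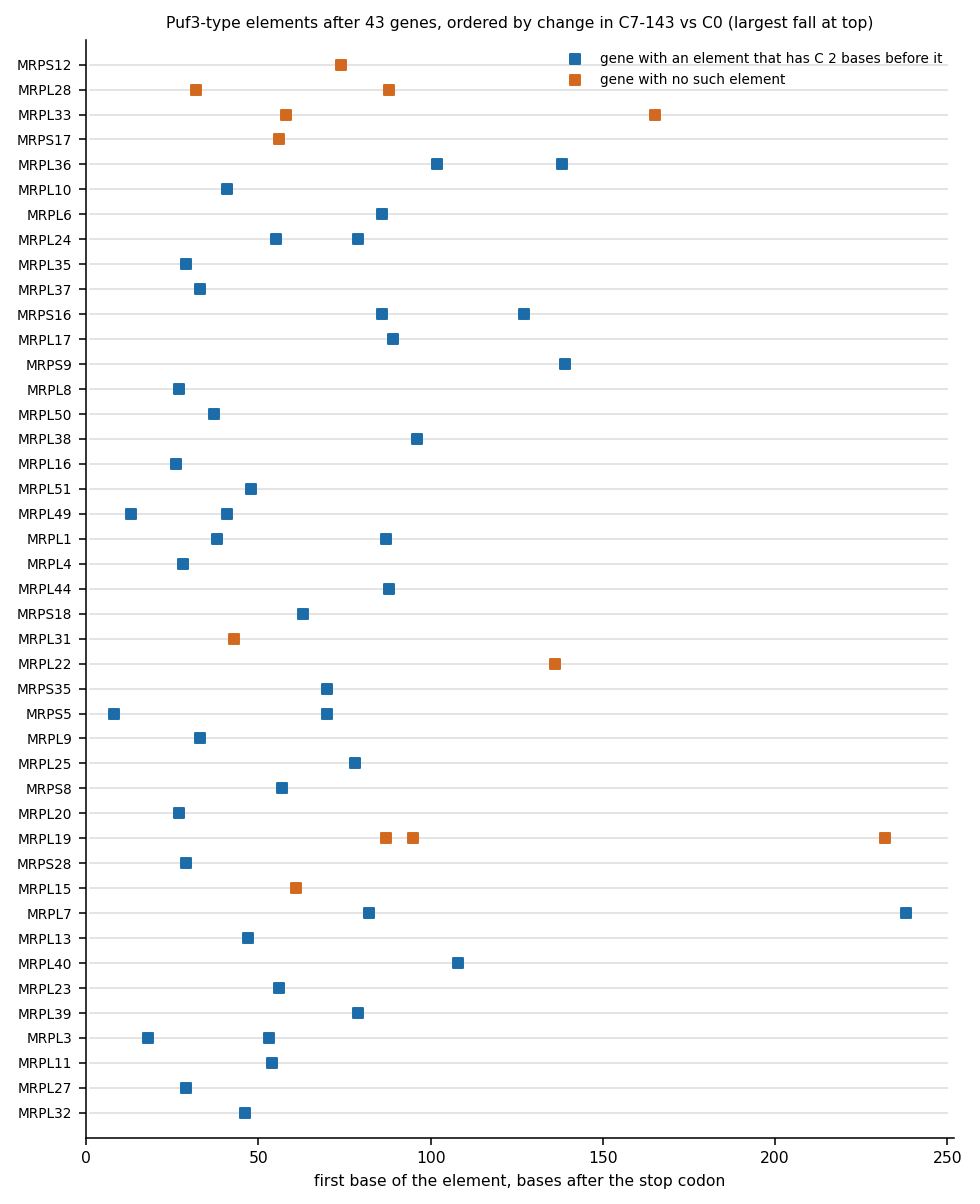
Position of each Puf3-type element, in bases from the stop codon to its first base (horizontal axis), for the 43 genes, ordered from the largest fall in C7-143 against C0 at the top to the largest rise at the bottom. Squares are elements, orange for the 8 genes that have no element with a C 2 bases before it and blue for the other 35; the 4 top genes are orange.

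The libraries held 16144808 to 21586409 counted reads, and single member genes had 37 to 4887 reads per library, so counting error is largest for the lowest of them. Levels are given as CPM, read counts scaled to a common library size, after TMM scaling, which equalises the bulk of genes between libraries. A gene is called where edgeR's quasi-likelihood test gave an adjusted p (Benjamini-Hochberg over all 5814 genes tested) below 0.05, and all 43 members passed the filter on low counts. Some libraries stood apart from their strain. Replicate 2 of BY47419 gave the family 0.304% of reads, against 0.249% and 0.264% in the other 2 libraries of that strain. Replicate 1 of C3-06 had 2.23% of its reads on cytosolic ribosomal protein genes, against 3.08% and 2.81%, and 4.76% on stress genes, against 3.22% and 3.64%. Replicate 3 of C7-143 had 4.76% on cytosolic ribosomal protein genes, against 5.52% and 5.95% in the other libraries of that strain.

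The family as a whole took a small share of the messages, lowest in C7-143. Its share of all counted reads was 0.272% ± 0.029 in BY47419, 0.292% ± 0.016 in C0, 0.248% ± 0.0087 in C3-06, 0.255% ± 0.013 in C5-63 and 0.203% ± 0.0096 in C7-143 (SD, n = 3 each). The 3 libraries of C7-143 had 0.195%, 0.20% and 0.213% and lay below all 12 others, of which the lowest had 0.238%. The C3-06, C5-63 and C0 values were closer: C3-06 had 0.238%, 0.253% and 0.253%, C5-63 had 0.253%, 0.244% and 0.269%, and C0 had 0.275%, 0.307% and 0.294%, so neither intermediate overlapped C0. The 36 other mitoribosomal genes followed the same order, at 0.183% ± 0.0088 in C7-143 against 0.264% ± 0.011 in C0.

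Cytosolic ribosomal protein genes took a larger share in each evolved strain than in C0, where the family took a smaller one. Their 137 genes took 0.417% of reads in BY47419, 0.481% in C0, 2.71% in C3-06, 3.65% in C5-63 and 5.41% in C7-143. Per gene and per kilobase of coding length, the cytosolic genes stood at 0.701 ± 0.022 times the level of the 43 mitochondrial ones in BY47419, 0.742 ± 0.044 times in C0, 4.55 ± 0.54 times in C3-06, 6.16 ± 0.14 times in C5-63 and 11.9 ± 1.8 times in C7-143 (SD, n = 3 each). In BY47419 and C0, then, the mitochondrial set was the higher of the pair per kilobase, and in the 3 evolved strains the cytosolic set was. Many of the 137 cytosolic genes are named as A and B copies. How reads matching both copies were counted is not given, so which set was higher in BY47419 and C0 is less certain. The 40 respiratory chain genes took 3.96% of reads in BY47419, 3.41% in C0, 1.81% in C3-06, 1.13% in C5-63 and 0.845% in C7-143, and the 23 stress genes took 8.76%, 8.02%, 3.87%, 2.18% and 1.27% in the same strain order. Their part in the changes of the mitochondrial ribosomal genes was not tested.

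**Figure D2:**
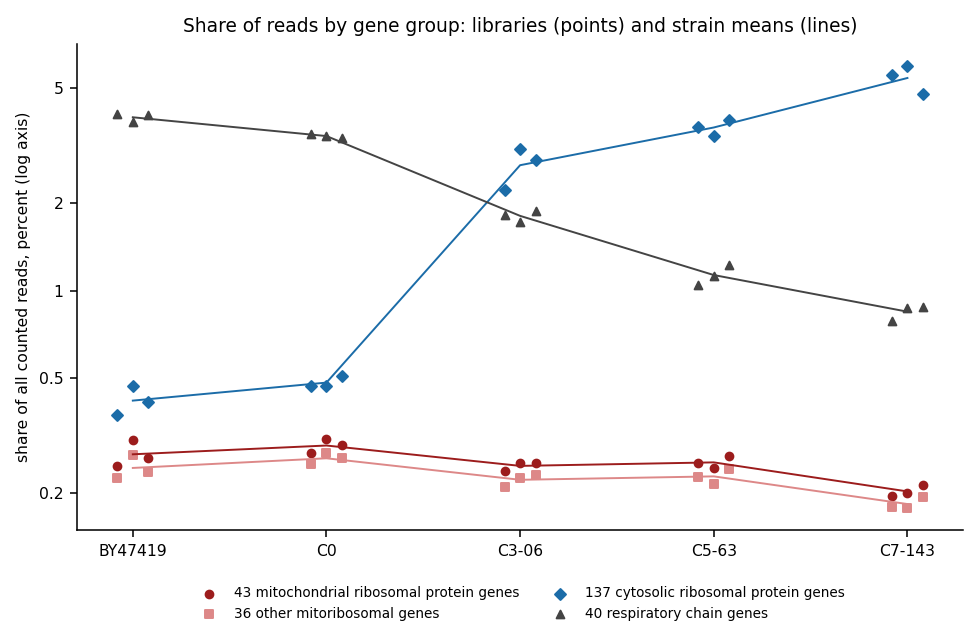
Share of all counted reads in percent (vertical log axis) by strain for 4 gene groups, with a point per library and a line through the strain means. The 43 mitochondrial ribosomal protein genes stay between 0.195% and 0.307% in all 15 libraries, while the cytosolic ribosomal protein genes rise to a mean of 5.41% in C7-143 and the respiratory chain genes fall to 0.845%.

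Levels within the family differed widely, although the proteins occur in a common particle. Per kilobase of coding length, MRPS12 was highest in 4 of the 5 strains, at 577 CPM in BY47419, 573 in C0, 288 in C3-06 and 214 in C5-63. In C7-143 the highest was MRPL39, which encodes the counterpart of bacterial L33, at 197 CPM per kilobase. MRPL19 was lowest in all 5 strains, at 14.4 CPM per kilobase in C7-143 and 8.99 in BY47419. The ratio of highest to lowest was 64.1 in BY47419, 34.2 in C0, 17.4 in C3-06, 12.9 in C5-63 and 13.7 in C7-143. Averaged over strains, MRPS12 and MRPS16 were highest and MRPL19 and MRPL32 lowest, and the order of the 43 genes was the same in the authors' FPKM values. The family lay above the typical gene in each strain: its median was 65.3 CPM per kilobase in C7-143 and 106 in BY47419, against medians of 49.9 in C7-143 and 50.1 in BY47419 over all genes with reads.

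The members drew closer to each other along the lineage. The SD of log2 CPM per kilobase over the 43 genes was 1.13 in BY47419, 0.98 in C0, 0.83 in C3-06, 0.76 in C5-63 and 0.68 in C7-143. Single libraries gave 1.02 to 1.21 in BY47419, 0.92 to 1.03 in C0, 0.82 to 0.85 in C3-06, 0.75 to 0.78 in C5-63 and 0.64 to 0.73 in C7-143, so only BY47419 and C0 touched. Over all genes with reads the SD was 2.24 in BY47419, 2.15 in C0, 2.00 in C3-06, 2.02 in C5-63 and 2.07 in C7-143. Members that were high in BY47419 tended to have the larger falls in C7-143 against C0 (Pearson r = -0.75, Spearman rho = -0.70, n = 43 genes), and over 5802 genes the relation was also negative (r = -0.44, rho = -0.43). The level and the change came from different libraries that share 1 scaling, and genes are not independent. Coding length showed little relation to the change (r = 0.15, rho = 0.15, n = 43 genes).

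**Figure D3:**
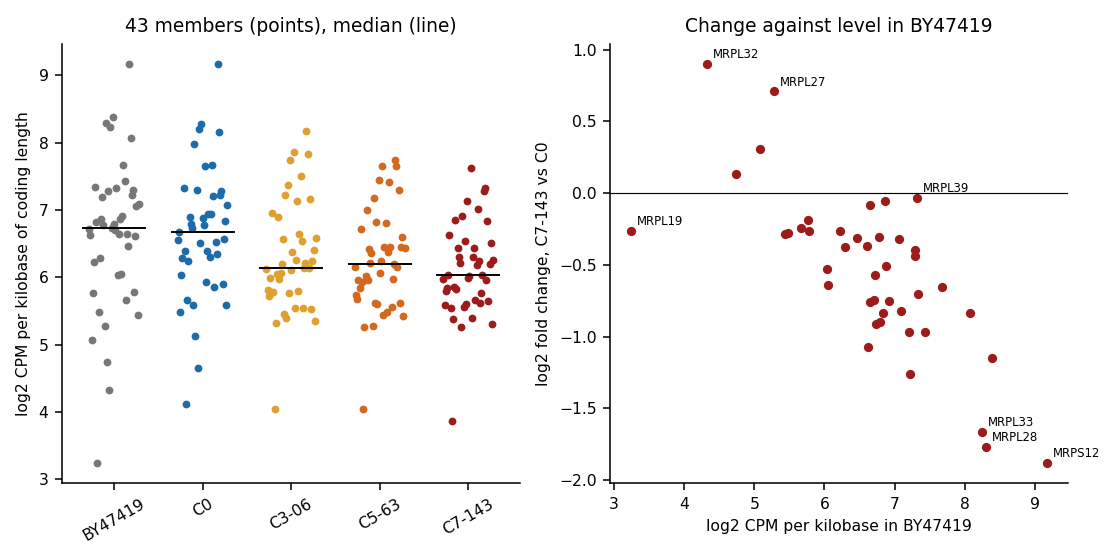
Left, log2 CPM per kilobase of coding length of the 43 genes (points) and their median (line) in each strain; right, log2 fold change in C7-143 against C0 plotted against the level in BY47419 for the same genes. The points of the left panel have an SD of 0.68 in C7-143, against 1.13 in BY47419, and in the right panel MRPS12, MRPL28 and MRPL33 lie at high level and large fall while MRPL32 and MRPL27 lie at low level and rise.

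Between C0 and BY47419 the share of members called was no larger than that of all genes. In C0 against BY47419, 2 of the 43 were higher and 7 lower, where 12.2% of all genes tested were called higher and 18% lower. The median log2 fold change was -0.00 over the members and -0.02 over all genes. The rises were MRPL19 and MRPL3 and the largest falls were MRPL17, MRPL24 and MRPL28. Which genes were called depended on single libraries: 8 were higher without BY47419 replicate 2, 5 without C0 replicate 1, and 1 when BY47419 replicate 1 or C0 replicate 2 was omitted, while 3 were lower without BY47419 replicate 3. With the replicate number as a block, 3 were higher and 6 lower, and the calls of MRPL35 and MRPL39 changed. A fit of these 2 strains alone called 1 higher and 3 lower, and library totals in place of TMM scaling called 6 higher and 2 lower. Calls over all genes tested moved too. With all libraries 712 were higher and 1049 lower. Higher calls numbered 976 without BY47419 replicate 2 and 640 without C0 replicate 1. They numbered 377 without BY47419 replicate 1 and 392 without C0 replicate 2. Without BY47419 replicate 3, 625 were lower. The block gave 725 higher and 1057 lower. Over all genes tested, the fit of the 2 strains called 556 higher and 566 lower, and library totals called 1279 and 318.

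The 2 rises in C0 were of unlike size. MRPL19 encodes the counterpart of bacterial L11, at the base of the ribosome's stalk, and had 2.67, 5.76 and 5.13 CPM in BY47419, 5.99, 11.4 and 7.53 in C0, 7.60, 8.19 and 7.90 in C3-06, 7.92, 7.30 and 8.52 in C5-63, and 6.71, 5.70 and 8.40 in C7-143. Every C0 library lay above every BY47419 library, but C0 replicate 2 was far above the other 2. The log2 fold change in C0 against BY47419 was 0.86, SE 0.25, adjusted p = 0.0189, and the call did not survive omission of BY47419 replicate 1 (0.61, adjusted p = 0.0864) or of C0 replicate 2 (0.57, adjusted p = 0.117), or a fit of these strains alone (0.89, adjusted p = 0.059). MRPL19 overlaps the gene YNL184C on the same strand over 113 bp, 23.69% of its length, so shared reads could have been split, although YNL184C had 0 to 6 reads per library.

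MRPL3, a mitochondria-specific large subunit protein related to ribonuclease III, had 30.2, 35.6 and 28 CPM in BY47419, 39.8, 44 and 39.8 in C0, 55.5, 48.6 and 51 in C3-06, 44.5, 46.5 and 45.5 in C5-63, and 45.2, 43.5 and 46.6 in C7-143. C0 lay above BY47419 without overlap (0.39, SE 0.09, adjusted p = 0.00421), and C3-06 lay above C0 (0.33, SE 0.08, adjusted p = 0.00212). In C5-63 and C7-143 it was not called against C0 (log2 fold changes 0.14 and 0.13) but was called with library totals (0.45, adjusted p = 0.00061, and 0.27, adjusted p = 0.0201).

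MRPL17, a mitochondria-specific protein, had 96, 97 and 95.6 CPM in BY47419, 70.7, 73.8 and 68.1 in C0, 44.6, 48.4 and 47.5 in C3-06, 48.9, 52.2 and 54.3 in C5-63, and 37.7, 40.4 and 41 in C7-143. It was the member with the largest called fall in C0 against BY47419 (-0.44, SE 0.06, adjusted p = 0.000248), with no overlap. It fell further in each evolved strain against C0, by 0.60 in C3-06, by 0.45 in C5-63 and by 0.84 in C7-143 on the log2 scale; with library totals the call in C5-63 was lost (-0.14, adjusted p = 0.139). MRPL24, the counterpart of bacterial L28, had 119, 106 and 117 CPM in BY47419, 93.6, 79.8 and 84.8 in C0, 52.7, 47.4 and 47.1 in C3-06, 46.9, 51.3 and 46.8 in C5-63, and 44.1, 39.9 and 48.1 in C7-143. Its C0 libraries all lay below its BY47419 libraries (-0.41, SE 0.08, adjusted p = 0.00232), and the C7-143 libraries lay lower again (-0.97, SE 0.08, adjusted p = 1.18e-08).

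Most of the family fell in the evolved strains. Against C0, 29 members were lower and 3 higher in C3-06 (39.4% and 41.1% of all genes tested), 28 lower and 2 higher in C5-63 (41.8% and 41.4%), and 31 lower and 2 higher in C7-143 (43.3% and 42.7%). The members' median log2 fold change was -0.38 for C3-06, -0.39 for C5-63 and -0.51 for C7-143, against 0.02, -0.00 and -0.02 over all genes tested. These 3 comparisons share the C0 libraries. The changes were mostly modest: 2 members fell at least 2-fold in C3-06 (11.2% of all genes tested), 4 in C5-63 (15.5%) and 6 in C7-143 (19.8%). The members' share was below that of all genes in each strain. No member rose 2-fold in any of the 3, where 16.8%, 19.4% and 23.9% of all genes did. In C7-143, 32 members had all 3 libraries below all 3 of C0 and 2 had them above (43.9% and 43.4% of all genes tested). With library totals in place of TMM scaling, 5 members were higher and 15 lower in C3-06, 7 and 17 in C5-63, and 4 and 27 in C7-143. Over all 5814 genes tested, it gave 2820 higher and 1702 lower in C3-06, 3035 and 1684 in C5-63, and 2684 and 2177 in C7-143. That scaling moved the all-gene median to 0.22, 0.30 and 0.12. The members' median relative to all genes was -0.39, -0.39 and -0.49 under it and -0.40, -0.39 and -0.49 under TMM.

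In all 3 evolved strains, 25 members were lower than in C0, 19 of the large subunit and 6 of the small subunit, where 34.4% of all genes tested were lower in all 3 and 35% higher. With library totals the sign turned for MRPL22 and MRPL51 in C3-06 and for MRPL7, MRPL22, MRPL51, MRPS5 and MRPS28 in C5-63, all called lower there under TMM scaling, and for no called member in C7-143. MRPL31, MRPL44, MRPL9, MRPS18 and MRPS8 were lower in C7-143 and not called in C3-06 or C5-63. MRPL15, MRPL20 and MRPL7 were lower in C3-06 and C5-63 and not called in C7-143, and MRPS35 was lower in C3-06 and C7-143. MRPL27 and MRPL32 were higher in all 3, and MRPL3 was higher in C3-06. The other 6, MRPL11, MRPL13, MRPL19, MRPL23, MRPL39 and MRPL40, were not called in any. A call in 1 strain and not in another does not show that the strains differ.

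**Figure D4:**
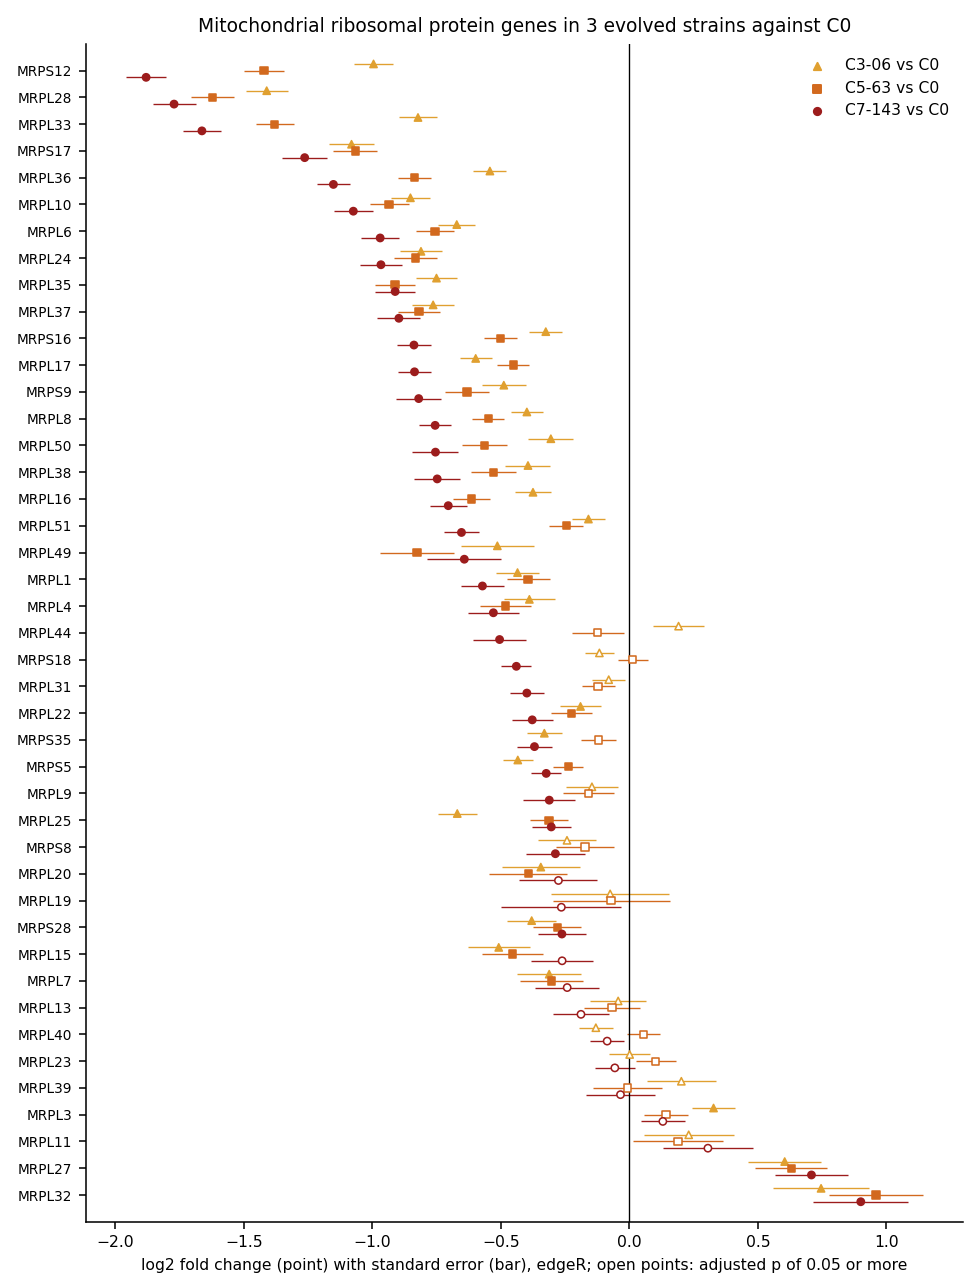
Log2 fold change with its standard error for all 43 genes in C3-06, C5-63 and C7-143 against C0, sorted by C7-143; filled points are called and open points are not. The genes run from MRPS12 at -1.88 to MRPL32 at 0.90 in C7-143, and most points lie left of 0.

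By subunit, all 9 small subunit genes were lower in C7-143 against C0 (median -0.44), and of the 34 large subunit genes 22 were lower and 2 higher (median -0.52). For scale, 43.3% of all genes tested were lower and 42.7% higher in that comparison (median -0.02). By origin, 22 of the 29 members with a bacterial counterpart were lower and 1 higher (median -0.57), and 9 of the 14 mitochondria-specific members were lower and 1 higher (median -0.38). The 36 other mitoribosomal genes showed 28 lower and 2 higher (median -0.62), with RSM7 at -1.68, MRP49 at -1.36 and MRP21 at -1.31 among those with the lowest adjusted p.

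MRPS12, the counterpart of bacterial S12 at the decoding site, had the largest fall of the family in C7-143. It had 262, 273 and 264 CPM in BY47419, 254, 292 and 249.8 in C0, 145, 130.3 and 124 in C3-06, 94, 98.6 and 105 in C5-63, and 68, 72.8 and 75.5 in C7-143. BY47419 and C0 overlapped, and each later strain lay wholly below the one before it. The log2 fold change against C0 was -1.0, SE 0.08, adjusted p = 5.18e-09 in C3-06, -1.42, SE 0.08, adjusted p = 5.55e-11 in C5-63 and -1.88, SE 0.08, adjusted p = 1.57e-12 in C7-143. The steps between evolved strains were also called, at -0.43, SE 0.08, adjusted p = 0.000509 for C5-63 against C3-06 and -0.46, SE 0.08, adjusted p = 0.000185 for C7-143 against C5-63.

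MRPL33, the small counterpart of bacterial L30, fell in the same stepwise way. It had 78.8, 81 and 76.7 CPM in BY47419, 71.9, 82.7 and 75.1 in C0, 46.1, 42.4 and 41.4 in C3-06, 28.5, 29.2 and 30.5 in C5-63, and 22.9, 23.5 and 26.1 in C7-143. BY47419 and C0 overlapped, and C3-06, C5-63 and C7-143 were each separate. Against C0 it was -1.66, SE 0.08, adjusted p = 4.01e-12 in C7-143; C5-63 lay below C3-06 (-0.56, SE 0.07, adjusted p = 4.97e-05) and C7-143 below C5-63 (-0.28, SE 0.08, adjusted p = 0.00625).

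MRPL28 and MRPS17 made most of their fall by C3-06. MRPL28, a mitochondria-specific large subunit protein, had 147, 123 and 149 CPM in BY47419, 113, 109.8 and 115 in C0, 43.8, 39.5 and 43.9 in C3-06, 34.2, 37.5 and 38.2 in C5-63, and 32, 31 and 36 in C7-143. The highest evolved library had 43.9 CPM and the lowest of C0 and BY47419 had 109.8 CPM. The log2 fold change was -1.77, SE 0.08, adjusted p = 6.44e-12 in C7-143 and -1.41, SE 0.08, adjusted p = 2.26e-10 in C3-06 against C0, and C7-143 was not called against C5-63 (-0.15, SE 0.08, adjusted p = 0.152) except with library totals (-0.32, adjusted p = 0.00779). MRPL28 was also lower in C0 than in BY47419 (-0.31, SE 0.08, adjusted p = 0.00997), a call lost without BY47419 replicate 1 (-0.27, adjusted p = 0.0508) or replicate 3 (-0.26, adjusted p = 0.0551) and with library totals (-0.15, adjusted p = 0.193). MRPS17, the counterpart of the rRNA-binding bacterial S17, had 103, 112 and 105 CPM in BY47419, 109, 98.2 and 112 in C0, 48.3, 51.2 and 51.3 in C3-06, 48.5, 46.6 and 57.2 in C5-63, and 42.7, 41 and 49.3 in C7-143. Its C3-06, C5-63 and C7-143 libraries all lay below those of C0, with -1.26, SE 0.09, adjusted p = 6.63e-10 in C7-143 and -1.08, SE 0.09, adjusted p = 8.56e-09 in C3-06.

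MRPL32 and MRPL27 went against the rest. MRPL32, the counterpart of bacterial L32, is known in yeast as a substrate of the m-AAA protease whose cleavage is needed to assemble the ribosome. It had 9.96, 15.8 and 7.63 CPM in BY47419, 12.1, 15.7 and 13.9 in C0, 20.9, 25.1 and 24.2 in C3-06, 28.1, 25 and 28.3 in C5-63, and 27.9, 22.1 and 28.1 in C7-143. Every library of the 3 evolved strains lay above every C0 library, and C0 and BY47419 overlapped. It was 0.75, SE 0.19, adjusted p = 0.00157 in C3-06, 0.96, SE 0.18, adjusted p = 0.000149 in C5-63 and 0.90, SE 0.19, adjusted p = 0.00027 in C7-143 against C0. MRPL27, a mitochondria-specific large subunit protein, had 18.5, 20.1 and 12.7 CPM in BY47419, 16.6, 24.7 and 22.1 in C0, 33.5, 30.1 and 33.1 in C3-06, 32.8, 32.7 and 32.9 in C5-63, and 36, 34 and 34 in C7-143. Again the evolved libraries were all above those of C0, with 0.71, SE 0.14, adjusted p = 0.000201 in C7-143. Both genes lay in the lower part of the family in BY47419, at 20.15 CPM per kilobase for MRPL32 and 38.75 for MRPL27. The family median there was 106. In C7-143, MRPL32 had 47.2 CPM per kilobase, below the family median of 65.3, and MRPL27 had 78.6, above it. Both also rose against BY47419 in C7-143, by 1.21 and 1.02 on the log2 scale, more than 2-fold each.

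**Figure D5:**
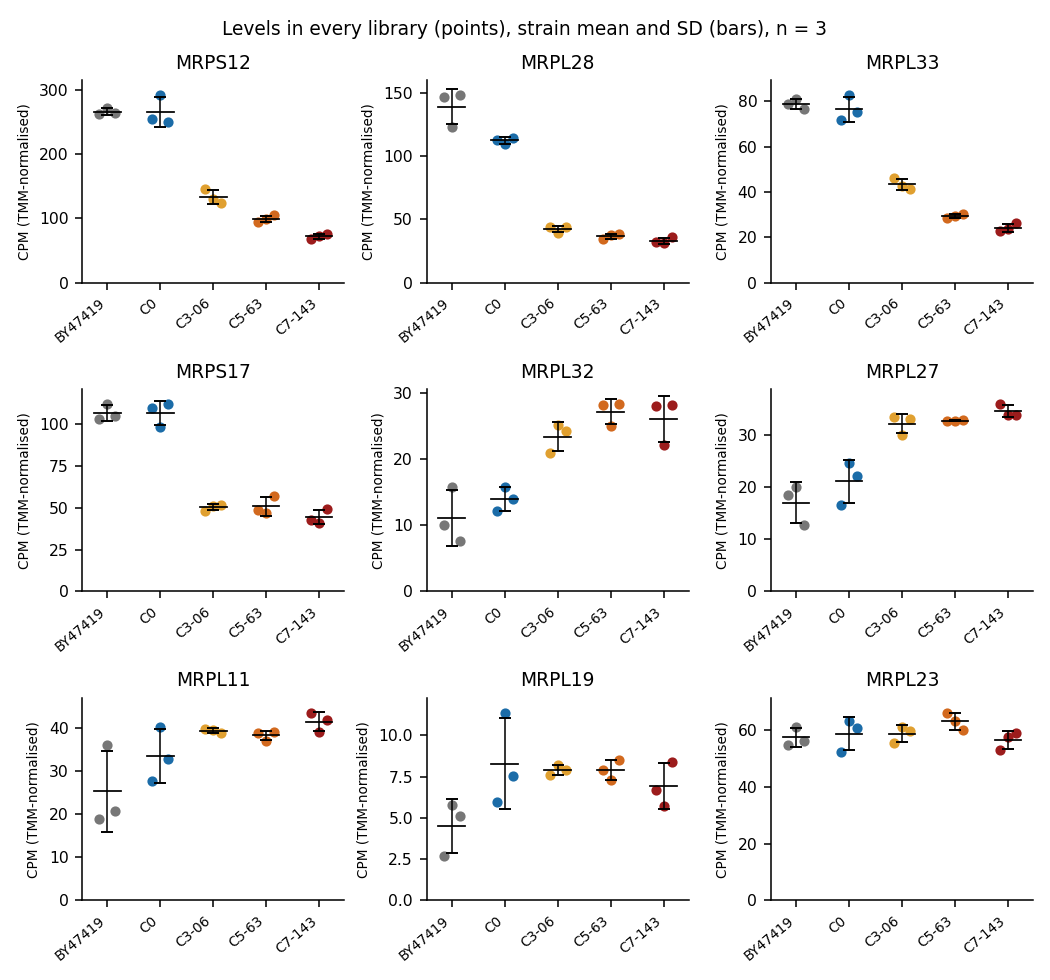
TMM-normalised CPM in every library (points) with the strain mean and SD (bars, n = 3) for 9 of the genes, strains ordered from BY47419 to C7-143. MRPS12, MRPL28, MRPL33 and MRPS17 are lower in every C3-06, C5-63 and C7-143 library than in any C0 library, MRPL32 and MRPL27 are higher, and MRPL11, MRPL19 and MRPL23 overlap C0.

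Some members had small differences between strains. MRPL23, the counterpart of bacterial L13, had the smallest range of strain means with MRPL13. It had 54.9, 61.3 and 56.3 CPM in BY47419, 52.2, 63.3 and 60.8 in C0, 55.5, 61.1 and 59.9 in C3-06, 66.1, 63.2 and 60.2 in C5-63, and 53.1, 57.5 and 59.1 in C7-143. The C7-143 libraries lay below those of C5-63, the strains otherwise overlapped, and C7-143 was not called against C0 (-0.06, SE 0.08, adjusted p = 0.508). MRPL13, a mitochondria-specific protein, had 39, 50.6 and 40.3 CPM in BY47419, 45.1, 61.1 and 50.1 in C0, 50.9, 50.1 and 50.8 in C3-06, 51, 45.3 and 52.9 in C5-63, and 47.7, 44.4 and 45.1 in C7-143, and was not called in C7-143 against C0 either (-0.19, SE 0.11, adjusted p = 0.118), except without C0 replicate 1 (-0.28, adjusted p = 0.0303). A p above the threshold does not show that the levels are equal.

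MRPL11, the counterpart of the stalk protein L10, had 18.9, 36.2 and 20.9 CPM in BY47419, 27.8, 40.2 and 32.7 in C0, 39.9, 39.7 and 38.8 in C3-06, 38.9, 37 and 39.1 in C5-63, and 43.5, 39.1 and 42 in C7-143. BY47419 was uneven, with replicate 2 near the level of C0, and the 3 evolved strains lay close together. It was not called in C7-143 against C0 (0.31, SE 0.18, adjusted p = 0.115), but was called higher without C0 replicate 2 (0.46, adjusted p = 0.0357), in a fit of these strains alone (0.31, adjusted p = 0.0291) and with library totals (0.45, adjusted p = 0.0475). It was higher in C7-143 than in BY47419 (0.70, SE 0.18, adjusted p = 0.00166). MRPL11, MRPL13, MRPL27 and MRPL32 became higher in C0 than in BY47419 when BY47419 replicate 2 was left out, at 0.76, 0.39, 0.45 and 0.67 on the log2 scale. MRPL49 and MRPL39 also gained a call in that fit, and MRPL39 ranked 4 of the 43 per kilobase. Replicate 2 was also the highest of the BY47419 libraries for all of these genes and for MRPL19 and MRPL3. The same held for members high in the family, such as MRPS12 and MRPL33. C0 replicate 2 was likewise the highest C0 library for all of these genes, and the fit without BY47419 replicate 2 retained it.

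The step from C3-06 to C5-63 changed little. In C5-63 against C3-06, 4 members were higher and 7 lower (19.8% and 21% of all genes tested), with a median of -0.04 against -0.01 over all genes. With library totals, 6 were higher and 2 lower, and the median turned to 0.064. That scaling gave 1546 higher and 761 lower over all genes tested. Leaving out 1 library gave 2 to 3 higher and 4 to 8 lower. Over all genes tested it gave 821 to 1135 higher and 879 to 1245 lower, against 1151 and 1221 with all libraries. Among the members, 2 were higher without C3-06 replicate 1, C3-06 replicate 3 or C5-63 replicate 1. Without C3-06 replicate 1, C5-63 replicate 1 or C5-63 replicate 3, 4 were lower. MRPL25, a mitochondria-specific protein, showed the largest rise of this step and had 53.7, 54.5 and 48.4 CPM in BY47419, 51.4, 51.8 and 48.3 in C0, 33.3, 32.5 and 29.4 in C3-06, 43, 39.3 and 39.6 in C5-63, and 41.5, 42.5 and 38.6 in C7-143. Its C3-06 libraries were the lowest of the 15, and those of C5-63 and C7-143 lay between C3-06 and C0. It was 0.36, SE 0.08, adjusted p = 0.00167 in C5-63 against C3-06 and -0.30, SE 0.07, adjusted p = 0.00129 in C7-143 against C0, where library totals gave no call (-0.16, adjusted p = 0.0877).

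MRPS35 and MRPS5 were also higher in C5-63 than in C3-06, by smaller steps. MRPS35, a mitochondria-specific small subunit protein, had 93, 112 and 99.4 CPM in BY47419, 100.4, 104 and 91.6 in C0, 77, 79.6 and 78.5 in C3-06, 89.1, 92.9 and 90.1 in C5-63, and 76.9, 73.9 and 78.1 in C7-143. C5-63 lay above C3-06 and C7-143 below C5-63, at 0.21, SE 0.07, adjusted p = 0.0211 and -0.25, SE 0.07, adjusted p = 0.00704. MRPS5, the counterpart of bacterial S5, had 115, 125 and 129.7 CPM in BY47419, 111, 104 and 103 in C0, 79.3, 76.8 and 78.8 in C3-06, 90.8, 90.1 and 88.2 in C5-63, and 89.4, 81.8 and 82.4 in C7-143. C5-63 lay above C3-06 (0.20, SE 0.06, adjusted p = 0.0151), and all 3 evolved strains lay below C0, although its log2 fold change in C5-63 against C0 was 0.068 with library totals. The rise of MRPS35 was no longer called without C3-06 replicate 1 (0.20, adjusted p = 0.0665), C3-06 replicate 3 (0.21, adjusted p = 0.0519) or C5-63 replicate 2 (0.19, adjusted p = 0.0662), and that of MRPS5 without C5-63 replicate 1 (0.19, adjusted p = 0.0537). The fall of MRPS5 in C0 against BY47419 (-0.22, SE 0.06, adjusted p = 0.012) was lost without BY47419 replicate 3 (-0.18, adjusted p = 0.0643) and with library totals (-0.072, adjusted p = 0.479).

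In the last step the count of lower members was near that of all genes, and no member was called higher. In C7-143 against C5-63, 12 members were lower and none higher (23.9% and 25% of all genes tested), with a median of -0.15 against -0.01 over all genes. None was higher at an unadjusted p under 0.05 either, nor with DESeq2 or limma-voom, although MRPL11, MRPL27 and MRPL49 had all 3 C7-143 libraries above all 3 of C5-63, as did 30.9% of all genes. MRPS12 fell most, followed by MRPS18 and MRPL51. MRPS18, the counterpart of bacterial S11, had 103, 104 and 100.3 CPM in BY47419, 102, 105 and 97.9 in C0, 90.3, 94 and 96.4 in C3-06, 106, 98.7 and 102 in C5-63, and 76.8, 77.5 and 70.0 in C7-143. BY47419, C0 and C5-63 overlapped and all C7-143 libraries lay below all others, at -0.45, SE 0.06, adjusted p = 1.68e-05 against C5-63 and -0.44, SE 0.06, adjusted p = 2.28e-06 against C0. MRPL51, a mitochondria-specific protein, had 81.5, 92.9 and 83.5 CPM in BY47419, 84.1, 90.6 and 83.1 in C0, 80.5, 74.4 and 76 in C3-06, 76.4, 67.9 and 73.2 in C5-63, and 54.8, 54.7 and 54.5 in C7-143. Its 3 C7-143 libraries were nearly equal and below all others, at -0.41, SE 0.07, adjusted p = 0.000145 against C5-63. Its small difference in C3-06 against C0 (-0.16, SE 0.07, adjusted p = 0.0357) was lost without C0 replicate 2, C3-06 replicate 2 or C3-06 replicate 3, at log2 fold changes of -0.12, -0.13 and -0.15.

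MRPL44, a mitochondria-specific protein and the single member with an intron in its coding sequence, had 30.7, 36 and 37.6 CPM in BY47419, 30.5, 38.7 and 39.8 in C0, 43.2, 40.3 and 41.1 in C3-06, 34.5, 33.1 and 32.7 in C5-63, and 24.3, 24.8 and 27.9 in C7-143. Its highest libraries were those of C3-06 and its lowest those of C7-143. It was -0.31, SE 0.10, adjusted p = 0.0188 in C5-63 against C3-06 and -0.38, SE 0.10, adjusted p = 0.00583 in C7-143 against C5-63; the first of these was not called without C3-06 replicate 1 (-0.29, adjusted p = 0.0619), C5-63 replicate 2 (-0.31, adjusted p = 0.0501) or C5-63 replicate 3 (-0.28, adjusted p = 0.0672), nor with library totals (-0.21, adjusted p = 0.174). MRPS16, the counterpart of bacterial S16, was the second highest member per kilobase and had 103, 90.9 and 101 CPM in BY47419, 99.8, 107 and 108 in C0, 89.6, 78.3 and 83.3 in C3-06, 73.8, 74.9 and 73.5 in C5-63, and 57.2, 60.4 and 58.4 in C7-143. Its levels stepped down from C0 through each evolved strain, at -0.84, SE 0.07, adjusted p = 3.21e-09 in C7-143 against C0. The step in C5-63 against C3-06 (-0.18, SE 0.06, adjusted p = 0.0383) was lost when any of 5 of the 6 libraries was left out, at log2 fold changes from -0.18 to -0.12, with RLE factors (-0.15, adjusted p = 0.0736), with DESeq2 (-0.15, adjusted p = 0.0711), in a fit of these strains alone (-0.18, adjusted p = 0.05005) and with library totals (-0.07, adjusted p = 0.435).

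Over the whole lineage, C7-143 against BY47419 showed 6 members higher and 30 lower (43.6% of all genes tested in each direction), with a median of -0.46 against -0.01. With library totals in place of TMM scaling, 8 were higher and 21 lower, and over all genes tested 2976 were higher and 2010 lower. At least a 2-fold fall was found in 10 members (22% of all genes tested), a share near that of all genes, and at least a 2-fold rise in 2 (26%). The largest falls were MRPL28 (-2.08, SE 0.08, adjusted p = 8.11e-13), MRPS12 (-1.89, SE 0.08, adjusted p = 1.12e-12) and MRPL33 (-1.71, SE 0.08, adjusted p = 2.23e-12). The largest rises were MRPL32 (1.21, SE 0.19, adjusted p = 1.61e-05), MRPL27 (1.02, SE 0.14, adjusted p = 5.31e-06) and MRPL11. MRPL19 was also called higher (0.60, SE 0.25, adjusted p = 0.0364), but its libraries overlapped and the call was lost without BY47419 replicate 1 (0.34, adjusted p = 0.18) or C7-143 replicate 3 (0.44, adjusted p = 0.149).

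Genes around mitochondrial translation differed by group in C7-143 against C0, where 43.3% of all genes tested were lower and 42.7% higher. Of 41 translation factors and messenger-specific activators 31 were lower and 2 higher (median -0.59), with RPM2, the protein subunit of mitochondrial RNase P, at -2.73 and PET494, an activator of COX3 translation, at -1.90. Of 13 mitochondrial tRNA synthetases 9 were lower and 1 higher (median -0.37), with MSK1, the lysine enzyme, at -2.23. Of 33 import genes 12 were lower and 14 higher (median -0.05), with HSP60, the matrix chaperonin, at -1.69 and MAS1, a subunit of the processing peptidase, at -1.79. The import genes were thus 36.4% lower and 42.4% higher, near the shares of all genes. Their log2 fold changes ranged from -1.79 to 1.10, and the 2 named were picked by lowest adjusted p. All 40 respiratory chain genes were lower (median -2.03), with QCR6 at -2.42 and COX6 at -2.33. All 137 cytosolic ribosomal protein genes were higher (median 3.65), with RPL17B at 5.51, RPL23A at 4.1 and RPS10B at 3.37, and 22 of 23 stress genes were lower (median -2.81), with HSP12 at -5.94, CTT1 at -3.73 and ALD3 at -3.84.

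Outside the mitoribosome, genes with the Puf3-type element had a median nearer 0. Of 825 such genes 49.8% were lower and 37.2% higher in C7-143 against C0 (median -0.19), where 41.7% and 44.2% of the 4911 genes without the element were lower and higher (median 0.04). The message of PUF3 itself was lower in the evolved strains. It had 55.2, 49.5 and 48.0 CPM in BY47419, 39.7, 35.1 and 36.4 in C0, 24.2, 18.5 and 24.2 in C3-06, 13, 11.7 and 13.7 in C5-63, and 15.9, 15.3 and 16.3 in C7-143. All evolved libraries lay below all C0 libraries, and C0 below BY47419; log2 fold changes against C0 were -0.73 for C3-06, -1.53 for C5-63 and -1.23 for C7-143 (edgeR adjusted p = 7.34e-06, 1.29e-09 and 1.39e-08), and in C0 against BY47419 it was -0.46 (adjusted p = 0.00433).

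Of the 12 regulators examined, PUF3 included, 7 were lower and 1 was higher in C7-143 against C0 (43.3% and 42.7% of all genes tested). HAP4, the activating subunit of the CCAAT-binding complex, fell by 3.31 on the log2 scale, and its DNA-binding partners HAP2 and HAP5 also fell (-1.62 and -1.31), while HAP3 was not called (-0.06). CCAAT was present in either strand of the 250 bases before the start codon in 12 of the 43 members (27.91%), against 35.4% of all genes and 34 of 40 respiratory chain genes (85%). HAP1, the heme-responsive activator, was not called (0.14). SFP1, TOR1 and SCH9, which govern ribosome synthesis and growth, fell (-1.25, -1.52 and -0.28), IFH1 and FHL1 were not called (0.23 and -0.01), and ABF1, a general DNA-binding factor, rose by 0.43. The Abf1 core, TCA and ACG with 6 bases between them, was present before 11 of the 43 members (25.58%) and 12.88% of all genes, and CGGGTAA, the Reb1 site, before 7 (16.28%) and 7.06%. The hexamer AATTTT was present before 14 members (32.56%), against 48.6% of all genes and 52.55% of cytosolic ribosomal protein genes; GATGAG was present before 7 (16.28%) against 17.05%, and the Rap1 core ACCCATACA before none against 0.3848%.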

How the data were processed

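Total RNA was extracted with the RNeasy Mini kit and sequenced on Illumina libraries, per the labels' protocols. The submitters' processing notes name HISAT2. How reads were counted, whether strand was used, and which build was the reference is not given in the sources used here, so reads of antisense or overlapping genes may not be separable. The authors deposited whole-number read counts per gene beside FPKM values for the 15 libraries in one table. Genes were placed on RefSeq R64, where all 43 members had the table's coordinates.

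Counts were fitted for all 15 libraries with strain as the factor (edgeR 4.0.16 in R 4.3.3, TMM factors, filterByExpr with a minimum count of 10, robust quasi-likelihood F test, two-sided), and p-values were Benjamini-Hochberg adjusted over 5814 genes in each of 7 comparisons. A gene was called at an adjusted p below 0.05. CPM per kilobase used the table's lengths, 99.2% of which are multiples of 3, hence coding length. The deposited FPKM served only to check the order of levels and the shares. The fit was tested on simulated data. Figures were drawn with Python 3.11.15 and Matplotlib 3.10.9.

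Libraries share replicate numbers across strains. Deviations of libraries from their strain's mean correlated at 0.116 to 0.321 for same-numbered libraries and -0.268 to 0.132 for others between C0 and BY47419. These ranges overlap and the labels do not say what a number means, so a pairing of these strains is possible but not shown. The calls for C0 against BY47419 come from the fit without pairing, and the only block fitted covered all 15 libraries. In the other 6 comparisons at least 1 same-numbered pair was below 0.1. Alternatives were RLE factors, library totals, DESeq2 1.42.0, limma-voom (limma 3.58.1), no filter, a stricter filter of 5 CPM in 3 libraries, a fit of the 2 strains alone, a replicate block, a stricter threshold of 0.01, and the omission of single libraries in turn.

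Values in every library are printed for the 3 largest called rises and falls in each comparison, the members called against the majority in C7-143 against C0, the 2 highest and 2 lowest per kilobase, and the 2 with the smallest range over strains. Genes of other lists were named by lowest adjusted p. The members, lists and motifs were chosen with earlier results of these data known. Groups of 3 libraries are too small for a test of single outlying libraries.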

Additional observations from a re-analysis of the deposited data

How the results depend on the processing

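With 3 libraries per strain, small steps near the threshold are the least certain, and absolute message amounts per cell are unknown, since every scaling gives relative levels. Under RLE factors, DESeq2, limma-voom, no filter and the stricter filter, all counts of members stayed within 1.5 times and all medians within the spread between libraries. Library totals in place of TMM scaling moved most counts. The all-gene median then lay between -0.18 and 0.30 in the 7 comparisons. Calls over all genes moved with it: in C7-143 against C5-63, 2314 of 5814 genes were lower, against 1387 under TMM. The members' distance from it was 0.019, -0.39, -0.39, -0.49, -0.035, -0.14 and -0.45 in the order that follows, against 0.02, -0.40, -0.39, -0.49, -0.036, -0.14 and -0.45 under TMM. Under library totals, C0 against BY47419 had 6 higher and 2 lower members (median 0.15), C3-06 against C0 had 5 and 15 (-0.17), C5-63 against C0 had 7 and 17 (-0.085), C7-143 against C0 had 4 higher (-0.37), C5-63 against C3-06 had 2 lower (0.064, a change of sign), C7-143 against C5-63 had 26 lower (-0.32), and C7-143 against BY47419 had a median of -0.17. Of the 43 genes, 14, 8, 13, 3, 12, 7 and 6 changed sign in the same order of comparisons. Those described gene by gene and called under either scaling were MRPL51 in C3-06 against C0 (0.041) and in C5-63 against C0 (0.062), MRPS5 in C5-63 against C0 (0.068) and MRPL23 in C7-143 against BY47419 (0.26). A fit of the 2 strains alone gave 1 higher and 3 lower in C0 against BY47419, as did an adjusted p below 0.01, which also gave 1 and 3 in C5-63 against C3-06. As a share of summed FPKM, the family held 0.425% in BY47419, 0.478% in C0, 0.410% in C3-06, 0.409% in C5-63 and 0.322% in C7-143. Without cytosolic ribosomal protein genes in the total, its share of C7-143 reads was 0.214%.

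Leaving out each library in turn gave these ranges of members higher and lower and of the median. C0 against BY47419 had 1 to 8, 3 to 7, and -0.04 to 0.05. C3-06 against C0 had 3 to 4, 25 to 31, and -0.41 to -0.29. C5-63 against C0 had 2, 24 to 29, and -0.43 to -0.29. C7-143 against C0 had 2 to 3, 28 to 35, and -0.56 to -0.42. C5-63 against C3-06 had 2 to 3, 4 to 8, and -0.06 to -0.02. C7-143 against C5-63 had 0, 11 to 15, and -0.19 to -0.11. C7-143 against BY47419 had 4 to 6, 29 to 30, and -0.52 to -0.44. Over all genes tested, the counts higher and lower were 377 to 976 and 568 to 1247 in C0 against BY47419. They were 2287 to 2353 and 2199 to 2294 in C3-06 against C0. In C5-63 against C0 they were 2325 to 2366 and 2311 to 2359. C7-143 against C0 gave 2416 to 2444 and 2453 to 2489. C7-143 against C5-63 gave 1194 to 1364 and 1056 to 1285. C7-143 against BY47419 gave 2493 to 2548 and 2435 to 2517. The share ranged from 0.256% to 0.284% in BY47419, 0.285% to 0.300% in C0, 0.246% to 0.253% in C3-06, 0.248% to 0.261% in C5-63 and 0.197% to 0.207% in C7-143.

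With the replicate number as a block, 3 members were higher and 6 lower in C0 against BY47419. Over all genes tested, the block gave 725 higher and 1057 lower in that comparison, against 712 and 1049 without it. In the other comparisons, the block added MRPL28 as lower in C5-63 against C3-06 (8 lower) and MRPL15 as lower in C7-143 against C0 (32 lower). It changed no other call there.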

Other observations

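The spread between the 3 libraries of a strain was itself smaller for these genes in the evolved strains. The median coefficient of variation over the 43 genes was 8.98% in BY47419, 8.48% in C0, 3.99% in C3-06, 4.74% in C5-63 and 5.29% in C7-143, against 8.12%, 6.76%, 7.0%, 5.49% and 6.46% over all genes in the same strain order. MRPL32 varied most in BY47419, at 37.7%, and MRPL19 most in C0, at 33.3%, both among the lowest members per kilobase. Of the 43 genes, 23 share their upstream region with a divergent neighbour, and the members lie on 12 chromosomes. Divergent neighbours were not counted over all genes, so whether that share is particular to the family is not known.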
